A study of Mus musculus with 4 samples.

Results

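The subunits of the mitochondrial respiratory chain and ATP synthase that are encoded in the nucleus were followed through 4 sciatic nerve libraries. Members were chosen by symbol alone: every row whose symbol starts with Ndufa, Ndufb, Ndufc, Ndufs, Ndufv, Uqcr, Atp5, Cox4i, Cox5, Cox6, Cox7 or Cox8, together with Sdha, Sdhb, Sdhc, Sdhd and Cyc1, leaving out Ndufaf assembly factors and pseudogenes. The rule took 86 of 24062 rows: 36 genes of complex I, 4 of complex II, 9 of complex III, 17 of complex IV, 17 of complex V, and the muscle isoforms Cox6a2, Cox7a1 and Cox8b, which are given apart. Ndufa4 and Ndufa4l2 were placed with complex IV. Atp5s and Atp5sl carry the complex V prefix, although their products are not structural parts of the enzyme.

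The study asked how genes of the blood-nerve barrier are expressed in Nf1-deficient mice. Whole sciatic nerves of C57BL/6 mice, 4 months of age, gave 1 RNA sequencing library per genotype. The PKO-NF1 library came from P2RY14-/- Nf1fl/f Dhh Cre mice and the NF1 library from Nf1fl/fl; Dhh Cre mice. The PKO library came from P2RY14-/- mice, and the WT library came from mice with neither mutation. Nf1 encodes neurofibromin, which switches RAS off, and Dhh-Cre recombines floxed alleles in the Schwann cell lineage, so other cells of these nerves keep Nf1. P2ry14 encodes a receptor for UDP-sugars and is lost in every cell of a PKO mouse. The labels give neither the number nor the sex of the animals in a library, and they mark the NF1 library as a repeat.

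Complexes I and II pass electrons from NADH and succinate to ubiquinone, complex III passes them to cytochrome c, and complex IV passes them to oxygen. Complexes I, III and IV pump protons, and complex V uses the gradient to make ATP. Each subunit sits in a fixed ratio to the others of its complex. Most subunits are encoded by 1 gene used in all tissues, but Cox6a, Cox7a and Cox8 each have a second isoform that heart and skeletal muscle use in adults. Schwann cells, axons, fat, vessels and any muscle fibres in the dissected tissue all contribute to a nerve library. In such bulk samples, fewer cells of a type and less RNA per cell cannot be told apart. Mitochondrially encoded subunits were not analysed here.

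The promoters of the subunit genes are shown first, since most of the genes moved together between libraries. RefSeq windows on GRCm38.p6, covering 250 bases before to 50 after the annotated start, matched 70 of the 86 genes. Nuclear respiratory factor 1 (NRF1) is a textbook regulator of these genes. Its palindrome of 10 letters, searched first on both strands, lay in 5 of the 70 windows (7.14%), against 1.47% of 17492 protein-coding genes. The core of 9 letters, GCGCATGCG, lay in 8 of the 70 windows (11.4%), against 2.61% of all. The 250 bases before the start were also richer in CG dinucleotides, which the motif holds, in subunit genes. Their median was 14 against 10 in all protein-coding genes, with the 50 bases after the start not counted. The part of this in the shares was not tested. That core and a MEF2 core were added after the shares of the longer motifs had been seen, as forms short enough to spell out, which brought the motifs searched to 10. The 4 palindromes upstream of a start are shown with the core in capitals.
Atp5g2, chr15:102671061-102671109, minus strand: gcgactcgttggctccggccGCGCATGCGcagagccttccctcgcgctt
Atp5k, chr5:108434421-108434469, minus strand: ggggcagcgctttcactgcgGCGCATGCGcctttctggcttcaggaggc
Cox6a1, chr5:115349092-115349140, minus strand: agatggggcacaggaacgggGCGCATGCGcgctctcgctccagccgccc
Ndufa11, chr17:56717682-56717730, plus strand: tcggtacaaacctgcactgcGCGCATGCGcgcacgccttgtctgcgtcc

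The shorter run GCGCATG, which lies within the NRF1 motif, was found in 18.6% of the subunit windows and 5.4% of all windows. The ETS core CCGGAAG was found in 22.9% of the subunit windows and 12.9% of all windows, and AAGATGGC, a YY1 motif, in 15.7% and 3.57%. TCAAGGTCA, bound by estrogen-related receptors, was found in 2.86% and 0.377%. The MEF2 motif of 10 letters lay in 0 of the 70 windows and in 0.0972% of all, and its core of 9 letters, TAAAAATAG, in 0 of the 70 and in 0.469% of all. The E-box CAGCTG was in 8.57% and 17.4%, and TATAAA in 7 of the 70 windows and 14.8% of all. All were searched on both strands. A match is a run of letters and does not show binding.

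The upstream 250 bases of 2 isoform pairs are shown, with every CG dinucleotide in capitals. In NF1 against WT Cox7a1 and Cox7a2 were both higher, at log2 ratios of 4.94 and 1.38, and Cox8b and Cox8a were at 4.60 and -0.12. The Cox6a pair is not shown, so the CG counts below do not cover it. The Cox7a1 and Cox8b sequences hold 4 and 1 CG, and those of their partners Cox7a2 and Cox8a hold 14 and 11. Cox8b also has an E-box, cagctg, that begins 19 bases before the start.
Cox7a1, chr7:30183921-30184170, plus strand: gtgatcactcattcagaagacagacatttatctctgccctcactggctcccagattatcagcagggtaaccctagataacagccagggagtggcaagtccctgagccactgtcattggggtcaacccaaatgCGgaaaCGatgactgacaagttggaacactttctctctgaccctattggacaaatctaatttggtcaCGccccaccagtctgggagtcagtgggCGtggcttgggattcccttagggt
Cox7a2, chr9:79759854-79760103, minus strand: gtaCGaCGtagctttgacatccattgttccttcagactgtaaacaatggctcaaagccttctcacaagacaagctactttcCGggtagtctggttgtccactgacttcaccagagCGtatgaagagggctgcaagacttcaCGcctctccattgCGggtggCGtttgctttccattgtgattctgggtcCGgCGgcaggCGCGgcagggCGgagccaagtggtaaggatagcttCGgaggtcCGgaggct
Cox8b, chr7:140900447-140900696, minus strand: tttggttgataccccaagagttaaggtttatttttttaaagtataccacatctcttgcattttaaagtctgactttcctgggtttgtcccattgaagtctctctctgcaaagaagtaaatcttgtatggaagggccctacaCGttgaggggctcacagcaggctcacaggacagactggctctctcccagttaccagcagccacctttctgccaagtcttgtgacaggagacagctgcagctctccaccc
Cox8a, chr19:7217617-7217866, minus strand: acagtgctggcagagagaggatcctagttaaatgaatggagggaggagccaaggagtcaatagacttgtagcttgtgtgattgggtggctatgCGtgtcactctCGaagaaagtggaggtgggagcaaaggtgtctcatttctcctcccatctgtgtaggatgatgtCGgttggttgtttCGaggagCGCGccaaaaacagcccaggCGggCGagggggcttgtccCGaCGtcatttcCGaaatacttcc

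Levels are CPM, the deposited counts scaled by library size and TMM factor. Libraries held 14111201 to 20362685 counts, with 1 library per genotype and therefore no replicate check on any difference. A ratio compares 2 libraries, and its exact 95% interval covers counting error only. A gene was called higher or lower where it was at least 2-fold apart and the interval excluded 1. The limit of 1 CPM in some library was passed by 14700 genes, 83 of them subunit genes. Ndufs5, Cox7b2 and Cox8c had 0 counts in all 4 libraries, which allows up to 0.183 CPM in PKO-NF1, 0.152 in NF1, 0.169 in PKO and 0.177 in WT. Cox7b2 and Cox8c are testis isoforms, whereas Ndufs5 is a subunit of complex I in every tissue; why its row is at 0 was not tested.

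The targeted genes and tissue markers bear on the labels. P2ry14 was at 10.6 CPM in PKO-NF1, 65.3 in NF1, 10.9 in PKO and 37.7 in WT. Nf1 was at 20.5 CPM in PKO-NF1, 63.4 in NF1, 41.0 in PKO and 72.8 in WT, so the library labelled NF1 was close to WT and above PKO, whose label gives no Nf1 mutation. The Nf1 level therefore does not bear out the NF1 label, and gene-level counts do not separate the floxed exons from the rest. PKO-NF1 was lower than NF1 in both targeted genes. Xist, made from the inactive X of females, had 9 counts in PKO-NF1, 39699 in NF1, 4948 in PKO and 10304 in WT. Ddx3y, on the Y chromosome, had 842, 0, 396 and 813 counts in the same order, so the sexes were not balanced between libraries. The summed level of 15 myelinating Schwann cell markers was 20140 CPM in PKO-NF1, 9089 in NF1, 36080 in PKO and 26030 in WT, and none was at 0. Markers of skeletal muscle stood apart in the NF1 library and are given with the muscle isoforms.

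WT was the library with the lowest subunit levels. The 86 genes together took 2.09% of all counts in PKO-NF1, 2.27% in NF1, 2.54% in PKO and 0.986% in WT. Of the 83 genes tested, 75 were lowest in WT and none was highest there, while PKO held the highest level of 50, NF1 that of 25 and PKO-NF1 that of 8. The median gene stood at 215.9 CPM in PKO-NF1, 210.2 in NF1, 252.7 in PKO and 88.2 in WT. Libraries other than WT were thus within a narrow range, with WT apart.

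WT was lowest in each complex taken on its own. Complex I summed to 6738 CPM in PKO-NF1, 6554 in NF1, 8549 in PKO and 2433 in WT. Complex II, the smallest, summed to 895.9 CPM in PKO-NF1, 857 in NF1, 914.6 in PKO and 500.0 in WT. Complex III summed to 2555 CPM in PKO-NF1, 2400.0 in NF1, 3347 in PKO and 880.6 in WT. The sums of complexes I to III were lowest in WT, and those of complexes IV and V were too. Complex IV without the muscle isoforms summed to 6313 CPM in PKO-NF1, 5169 in NF1, 8582 in PKO and 1915 in WT. Complex V summed to 6100 CPM in PKO-NF1, 6298 in NF1, 7574 in PKO and 2461 in WT. The muscle isoforms differed in being highest in NF1, with 55.3 CPM in PKO-NF1, 677 in NF1, 76.2 in PKO and 18.9 in WT.

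**Figure D1:**
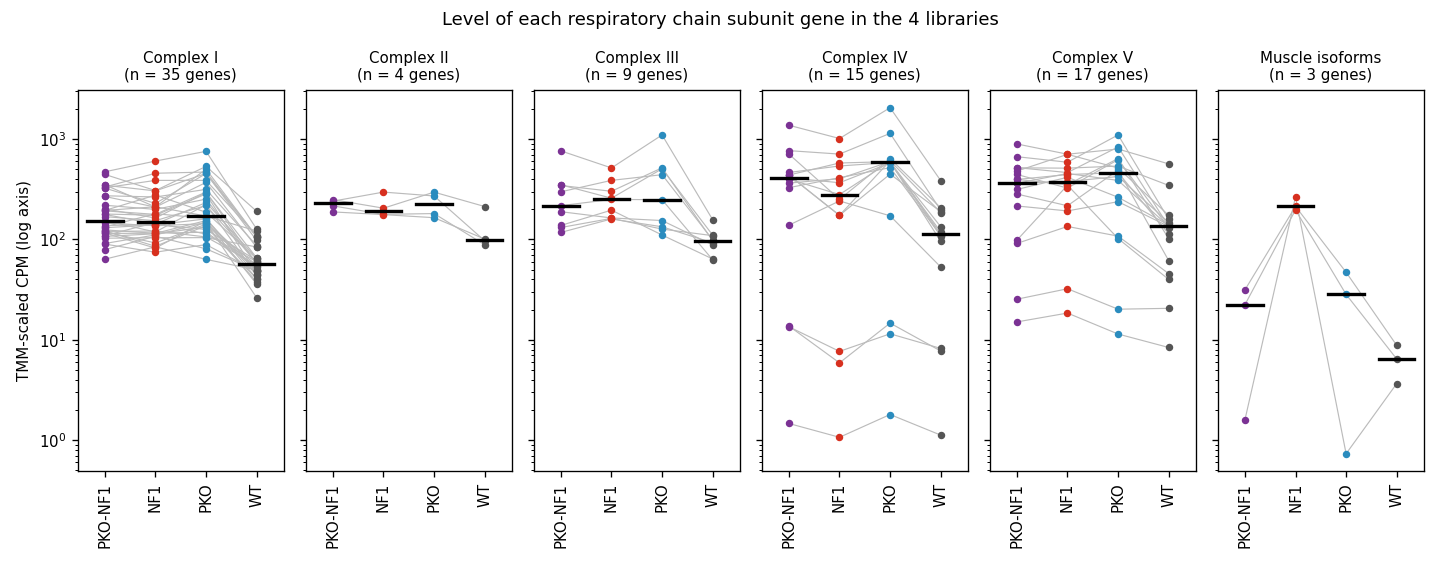
TMM-scaled CPM (log axis) of every tested subunit gene in the PKO-NF1, NF1, PKO and WT libraries, by complex; each point is 1 gene in 1 library, grey lines join a gene and black bars are medians. The WT median is the lowest of the 4 in complexes I to V, and the 3 muscle isoforms peak in NF1.

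Between genes, levels are given per kilobase of coding transcript. The most abundant by their mean over the 4 libraries were Cox4i1, the general isoform of subunit 4, at 1604 CPM per kb; Atp5e, the epsilon subunit of ATP synthase, at 1497; and Uqcrh, the hinge protein of complex III, at 1339. Cox6c and Ndufa4 followed in complex IV at 1163 and 938 CPM per kb. In complex I the leading genes were Ndufb9, Ndufa6 and Ndufa7, all accessory subunits, at 697, 616 and 524 CPM per kb. Complex II was lower, with Sdhb at 199, Sdhd at 135 and Sdha at 83.2 CPM per kb. Uqcr10 and Uqcr11 completed the leading genes of complex III at 728 and 689 CPM per kb, and Atp5k and Atp5l those of complex V at 821 and 686.

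The pair that differs by label in Nf1 alone is NF1 against WT, although the Nf1 level was close in both. Of the 83 genes, 61 were higher in NF1 and none was lower, where 10.4% of all genes tested were higher and 6.31% were lower. The median log2 ratio of the subunit genes was 1.38, against -0.001 over all genes tested, and 77 of 83 ratios were above 0. By complex, 28 of 35 genes were higher in complex I (median log2 ratio 1.31), 2 of 4 in complex II (0.91), 6 of 9 in complex III (1.62), 9 of 15 in complex IV (1.40) and 13 of 17 in complex V (1.58). All 3 muscle isoforms were higher. Tissue markers moved with this rise. Skeletal muscle markers took 7.35% of counts in NF1 and 0.161% in WT, with 32 of 34 tested higher, and 12 of 15 myelinating Schwann cell markers and 9 of 12 adipocyte markers were lower. Their part in the ratios of the subunit genes was not tested. Sdhd and Ndufa10 lay just past the 2-fold limit at log2 ratios of 1.01 and 1.12, and Ndufa2 and Ndufa11 just short of it at 0.99 and 0.92.

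The pair that differs by label in P2ry14 alone is PKO against WT, with the same WT library. Here 60 genes were higher in PKO and 1, Cox6a2, was lower, where 10.0% of all genes tested were higher and 5.22% were lower. The median log2 ratio of the subunit genes was 1.72, against -0.08 over all genes tested. By complex, 28 of 35 genes were higher in complex I (median 1.86), 2 of 4 in complex II (0.87), 5 of 9 in complex III (1.99), 12 of 15 in complex IV (2.13) and 11 of 17 in complex V (1.52). Axon and neuron markers also rose in this pair: 5 of 8 were higher and 1 was lower, with a median log2 ratio of 1.27. They did not follow the subunit genes in other pairs. The marker median was -0.37 in NF1 against WT, where the subunit median was 1.38. It was 1.42 in PKO-NF1 against NF1, where the subunit median was 0.04. The summed level of the 8 markers was 222.6 CPM in PKO-NF1, 90.5 in NF1, 294.8 in PKO and 124 in WT, and none was at 0. Of 12 adipocyte markers 5 were higher, and of 34 muscle markers 23 were lower. The part of these markers in the ratios of the subunit genes was not tested. Ndufa8 and Sdhd lay just past the limit at 1.03 each, and Ndufa10 and Ndufa4l2 just short of it at 0.93 each. Both comparisons rest on WT, so their likeness is no independent evidence for either.

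The pairs without WT gave few calls. In PKO-NF1 against PKO, which differ by label in Nf1, 1 gene was higher, Cox6a2, and none was lower, where 5.2% of all genes tested were higher and 9.7% were lower. The median log2 ratio was -0.26, and 64 of 83 ratios were below 0. It was -0.29 in complex I, 0.01 in complex II, -0.20 in complex III, -0.45 in complex IV and -0.14 in complex V. Of the 61 genes higher in NF1 than in WT, only Cox6a2 was also higher in PKO-NF1 than in PKO (1.29% of all genes were higher in both). At a 1.5-fold limit 11 genes were lower (20.1% of all genes).

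In PKO-NF1 against NF1, which differ by label in P2ry14 but also in the Nf1 level (20.5 and 63.4 CPM), 4 genes were higher and 4 were lower, where 7.9% of all genes tested were higher and 13.8% were lower. The median log2 ratio was 0.04, and -0.13 with scaling by total counts, which moved the median of all genes by -0.17. The higher genes were Cox6a1, Cox8a, Cox7a2l and Ndufa4l2, all of complex IV. The lower genes were Cox6a2, Cox7a1, Cox8b and Atp5g1. Cox6a1, Cox8a and Cox7a2l were also higher in PKO than in WT, 3 of the 60 called higher there and 3 of the 4 called here (2.97% of all genes were higher in both). Cox6a2 was lower in both (2.85% of all genes). These pairs share no library.

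**Figure D2:**
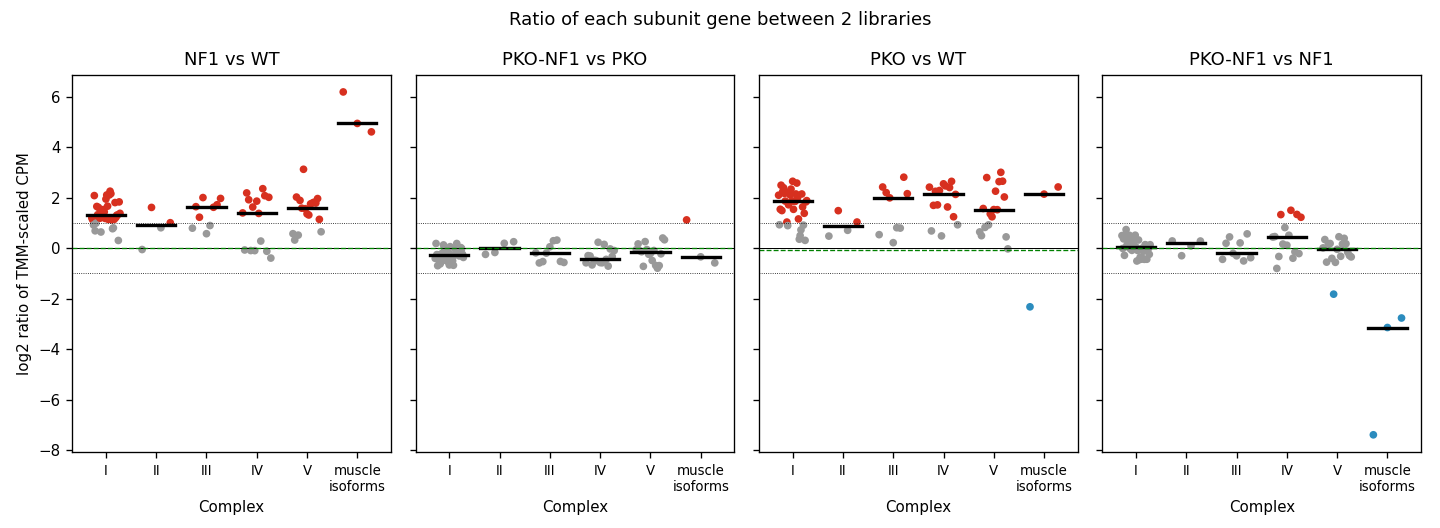
log2 ratio of TMM-scaled CPM for each tested subunit gene by complex, for NF1 and PKO over WT and for PKO-NF1 over PKO and over NF1; red points are genes called higher, blue points lower, grey points neither, black bars are medians, dotted lines mark 2-fold and the green dashed line is the median of all genes tested. The medians over WT lie above 0 in complexes I to V. In the pairs without WT those of complexes I to V lie between -0.45 and 0.44, both ends in complex IV. The muscle isoform median lies at -0.34 over PKO and at -3.14 over NF1.

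Within complex I the ratios to WT differed between subunits by role. The 7 nuclear core subunits, which bind the flavin and iron-sulfur clusters or line the route to ubiquinone, include Ndufv1, Ndufv2 and Ndufs1. In PKO against WT 2 of these 7 were higher, with a median log2 ratio of 0.72, and 26 of the 28 accessory subunits were higher, with a median of 1.94. In NF1 against WT 4 of the 7 core subunits were higher, with a median of 1.14, and 24 of the 28 accessory subunits, with a median of 1.35. Of all genes tested, 10.0% were higher in PKO than in WT and 10.4% in NF1 than in WT. The split by role was made after the values were seen, and the core genes also have longer coding transcripts, with a median of 1312 bases against 718. Among genes that are not subunits, 55.5% of those under 1000 bases and 13.4% of those of 1000 to 2000 bases were higher in PKO than in WT. In NF1 against WT these shares were 27.2% and 13.9%.

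The core subunit Ndufv1, which takes the electrons from NADH, was at 103 CPM in PKO-NF1, 104 in NF1, 104 in PKO and 84.3 in WT. Ndufs1, the largest iron-sulfur subunit, was at 63.6 CPM in PKO-NF1, 84.5 in NF1, 63.4 in PKO and 49.6 in WT. Their ratios of PKO to WT were the lowest in complex I, at log2 0.31 and 0.35. At the other end were accessory subunits. Ndufb9 was at 473 CPM in PKO-NF1, 606 in NF1, 757 in PKO and 127 in WT. Its log2 ratio of NF1 to WT was 2.26, and PKO exceeded WT 5.97-fold (95% interval 5.70 to 6.25). Ndufb4 and Ndufa12 followed in PKO against WT at log2 2.65 and 2.49, and Ndufc1 and Ndufb5 in NF1 against WT at 2.16 and 2.11. In NF1 against WT the lowest ratios after Ndufv1, at 0.30, were those of Ndufa9 at 0.64 and Ndufa13 at 0.69.

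Without WT, complex I genes stayed within a narrow range. In PKO-NF1 against PKO the log2 ratios ran from -0.69 for Ndufa12, with Ndufb9 at -0.68 and Ndufb4 at -0.67, up to 0.18 for Ndufa10 and 0.13 for Ndufa8. In PKO-NF1 against NF1 they ran from -0.51 for Ndufb5, with Ndufb8 at -0.46 and Ndufs3 at -0.44, up to 0.74 for Ndufa2, with Ndufa13 at 0.54 and Ndufb3 at 0.51. None of the 35 genes was called in either pair.

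Succinate dehydrogenase, complex II, also serves the tricarboxylic acid cycle. Sdha, the flavoprotein, was at 86.2 CPM per kb in PKO-NF1, 70.8 in NF1, 102 in PKO and 73.5 in WT, and its ratio of NF1 to WT was 0.963 (95% interval 0.920 to 1.01). Sdhb, the iron-sulfur protein, was at 211 CPM per kb in PKO-NF1, 260.0 in NF1, 238 in PKO and 85.1 in WT. NF1 exceeded WT 3.06-fold (2.89 to 3.23) and PKO exceeded WT 2.80-fold (2.64 to 2.96). Partners of 1 enzyme thus had unequal ratios to WT. The membrane anchors lay between them, with log2 ratios of NF1 to WT of 0.81 for Sdhc and 1.01 for Sdhd, and of PKO to WT of 0.71 and 1.03. In PKO-NF1 the 4 genes lay between log2 -0.25 and 0.25 of PKO and between -0.30 and 0.29 of NF1.

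Complex III also divided by role. Its core proteins Uqcrc1 and Uqcrc2 and its redox subunits Cyc1 (cytochrome c1) and Uqcrfs1 (the Rieske protein) had a median log2 ratio of PKO to WT of 0.66, with none of the 4 called. All 5 small subunits were higher in PKO, with a median of 2.20, where 10.0% of all genes tested were higher. In NF1 against WT 1 of the 4 was higher (Uqcrfs1, log2 1.62), with a median of 0.84. All 5 small subunits were higher there, with a median of 1.72, where 10.4% of all genes tested were higher. The 4 have longer coding transcripts, a median of 1586.5 bases against 474.5. With the trend of other genes in length and GC content removed, little of the gap between the roles was left in NF1 against WT. The medians there were 0.79 and 0.92. They were then 0.15 and 1.31 in PKO against WT. Uqcrh was at 765.0 CPM in PKO-NF1, 517 in NF1, 1102 in PKO and 157 in WT, and was 7.01-fold higher in PKO than in WT (6.73 to 7.30). Uqcr10 and Uqcr11 had log2 ratios of PKO to WT of 2.42 and 2.20, and Uqcrq had a log2 ratio of NF1 to WT of 1.97. Uqcrb, the highest there, was at 217.5 CPM in PKO-NF1, 251 in NF1, 249.2 in PKO and 62.7 in WT. Uqcrc1 was at 132 CPM in PKO-NF1, 162 in NF1, 127 in PKO and 109 in WT, the lowest ratio to WT of complex III in both comparisons (log2 0.57 for NF1 and 0.22 for PKO). Cyc1 was next at 0.79 and 0.53. In the pairs without WT the 9 genes lay between log2 -0.59 (Uqcr10, PKO-NF1 against PKO) and 0.57 (Uqcrh, PKO-NF1 against NF1).

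Complex V held the highest ratio of PKO to WT of all 83 genes. Atp5k, subunit e of the membrane part, was at 284 CPM in PKO-NF1, 217 in NF1, 493 in PKO and 61.5 in WT, 8.01-fold higher in PKO than in WT (7.51 to 8.55). Atp5e was at 669 CPM in PKO-NF1, 589 in NF1, 1103 in PKO and 159 in WT, a log2 ratio of PKO to WT of 2.79, and Atp5l followed at 2.65. The catalytic F1 genes differed among themselves. Atp5b, the beta subunit, was at 897 CPM in PKO-NF1, 708 in NF1, 798 in PKO and 567 in WT. Its log2 ratio to WT was 0.32 in NF1 and 0.49 in PKO, whereas Atp5c1, the gamma subunit, stood at 2.02 and 1.57. Atp5a1 (alpha) and Atp5d (delta) were at 0.57 and 0.52 in NF1 against WT, short of the limit. Atp5o, the oligomycin sensitivity protein of the stalk, was at 1.96 in NF1 against WT. Atp5s and Atp5sl, the genes with only the prefix, had log2 ratios of PKO to WT of 0.45 and -0.03.

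The c ring of ATP synthase is encoded by Atp5g1, Atp5g2 and Atp5g3, which yield the same mature protein. Atp5g1 was at 98.4 CPM in PKO-NF1, 348 in NF1, 102 in PKO and 39.95 in WT. It was highest in NF1, 8.71-fold above WT (8.04 to 9.43). PKO-NF1 was 3.54-fold below NF1 (3.35 to 3.74). Atp5g2 was at 91.3 CPM in PKO-NF1, 135 in NF1, 108 in PKO and 45.7 in WT. Atp5g3 was at 366 CPM in PKO-NF1, 378 in NF1, 425 in PKO and 147.5 in WT, so both had much smaller gaps between NF1 and PKO-NF1. The muscle marker sum was highest in NF1 as well, and its part in the Atp5g1 ratios was not tested. No other subunit gene outside the muscle isoforms was called lower in PKO-NF1 than in NF1; Atp5g2 and Atp5c1 came next at log2 -0.56 and -0.55.

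Complex IV, cytochrome c oxidase, is the complex of the tissue isoforms. The muscle isoforms and their partners are described first. Cox6a2 was at 1.59 CPM in PKO-NF1, 266 in NF1, 0.731 in PKO and 3.66 in WT. Cox7a1 was at 22.3 CPM in PKO-NF1, 197 in NF1, 28.3 in PKO and 6.43 in WT. Cox8b was at 31.4 CPM in PKO-NF1, 214 in NF1, 47.1 in PKO and 8.79 in WT. All 3 were highest in NF1, but they ordered the other libraries differently: Cox6a2 was lowest in PKO, and Cox7a1 and Cox8b were lowest in WT.

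NF1 exceeded WT 72.7-fold for Cox6a2 (95% interval 56.6 to 94.99), 30.7-fold for Cox7a1 (25.3 to 37.4) and 24.3-fold for Cox8b (20.7 to 28.8). PKO-NF1 was lower than NF1 by 168-fold for Cox6a2 (114 to 257), 8.83-fold for Cox7a1 (7.93 to 9.85) and 6.80-fold for Cox8b (6.21 to 7.47). In PKO against WT the genes parted: Cox6a2 had a ratio of 0.200 (0.101 to 0.367), while Cox7a1 was 4.41-fold higher (3.58 to 5.47) and Cox8b 5.36-fold higher (4.50 to 6.42). In PKO-NF1 against PKO, Cox6a2 was 2.17-fold higher (1.08 to 4.60), on 26 counts in PKO-NF1 and 13 in PKO. Cox7a1 and Cox8b were 1.27-fold (1.11 to 1.46) and 1.499-fold (1.34 to 1.68) lower there, short of the limit.

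The general isoforms did not share this pattern. Cox6a1 was at 437 CPM in PKO-NF1, 174 in NF1, 609 in PKO and 186 in WT. Cox7a2 was at 400 CPM in PKO-NF1, 281 in NF1, 598 in PKO and 108 in WT. Cox8a was at 439 CPM in PKO-NF1, 174 in NF1, 449 in PKO and 190 in WT. Cox6a1 and Cox8a were lowest in NF1, at log2 ratios to WT of -0.10 and -0.12, and both were over 2-fold higher in PKO-NF1 than in NF1 (2.51-fold, 2.41 to 2.62, and 2.52-fold, 2.42 to 2.63).

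As a share of the counts of each pair, Cox6a2 made up 0.362% in PKO-NF1, 60.5% in NF1, 0.120% in PKO and 1.93% in WT. Cox7a1 made up 5.29% in PKO-NF1, 41.3% in NF1, 4.53% in PKO and 5.61% in WT. Cox8b made up 6.68% in PKO-NF1, 55.1% in NF1, 9.51% in PKO and 4.43% in WT. The exact 95% binomial intervals in NF1 were 59.4% to 61.5%, 40.3% to 42.3% and 54.0% to 56.3%, and no interval of another library reached above 10.1%. Per kilobase the NF1 shares were 56.2% for Cox6a2, 51.3% for Cox7a1 and 65.2% for Cox8b. With both isoforms added, NF1 stood above WT 2.32-fold for Cox6a (440.0 against 189 CPM), 4.17-fold for Cox7a (478 against 115 CPM) and 1.95-fold for Cox8 (388 against 198 CPM).

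**Figure D3:**
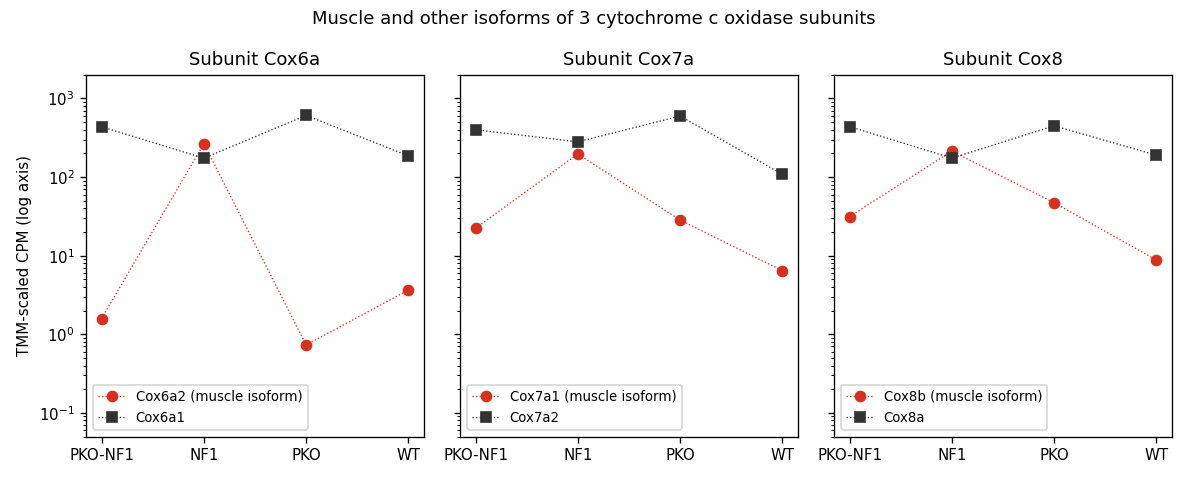
TMM-scaled CPM (log axis) of the muscle isoform (red circles) and the general isoform (dark squares) of Cox6a, Cox7a and Cox8 in the PKO-NF1, NF1, PKO and WT libraries; each point is 1 library. Cox6a2 and Cox8b exceed Cox6a1 and Cox8a in NF1 alone, at 266 and 214 CPM against 174 CPM each.

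Skeletal muscle markers moved with these isoforms. The summed level of 36 markers of muscle fibres, such as myosins and troponins, was 491.8 CPM in PKO-NF1, 71080 in NF1, 294.8 in PKO and 1341 in WT, or 0.0454%, 7.35%, 0.0258% and 0.161% of counts in that order. In NF1 against WT 32 of 34 tested markers were higher and none was lower, and in PKO-NF1 against NF1 31 were lower. In PKO against WT 23 were lower and 1 was higher, the direction of Cox6a2 but not that of Cox7a1 and Cox8b. Of the 36 markers, 1 was at 0 in PKO-NF1, 1 in NF1, 3 in PKO and 1 in WT. Their part in the isoform ratios was not tested.

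Adipocyte markers, of fat around the nerve, had another order. The 12 markers summed to 14410 CPM in PKO-NF1, 4389 in NF1, 19030 in PKO and 7341 in WT. Brown fat also uses Cox7a1 and Cox8b. Its 7 markers summed to 25.8 CPM in PKO-NF1, 33.1 in NF1, 29.97 in PKO and 33.8 in WT, with 1, 1, 1 and 3 of them at 0 in that order. In NF1 against WT 2 of the 5 tested were higher, Cidea and Elovl3, and none was lower. Ucp1, the defining gene, had 1 count in PKO-NF1, 0 in NF1, 4 in PKO and 0 in WT. Cidea had 32, 67, 44 and 8 counts and Elovl3 1, 21, 2 and 0 counts in the same order. Kng2, Otop1 and Ppara, with 64 to 246 counts in every library, had no common order. The part of fat in the ratios of Cox7a1 and Cox8b was not tested.

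The other complex IV genes fell into a group that was higher in NF1 than in WT and a group that was not. Cox7b, Cox5a, Cox7c, Ndufa4, Cox5b, Cox6c, Cox6b1, Cox4i1 and Cox7a2 had log2 ratios of NF1 to WT between 1.38 and 2.35. Cox7a2l, a factor of supercomplex assembly, was at 0.28, and Cox4i2, Cox6a1, Cox6b2, Cox8a and Ndufa4l2 lay between -0.39 and -0.07. Cox4i1 was at 1378 CPM in PKO-NF1, 1016 in NF1, 2061 in PKO and 386.5 in WT. NF1 exceeded WT 2.63-fold (2.56 to 2.70) and PKO exceeded WT 5.33-fold (5.20 to 5.48).

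Isoforms other than those of muscle were scarce. Cox4i2, the isoform of lung and low oxygen, was at 1.46 CPM in PKO-NF1, 1.07 in NF1, 1.80 in PKO and 1.12 in WT. Cox6b2, a testis isoform, was at 13.5 CPM in PKO-NF1, 7.66 in NF1, 11.5 in PKO and 8.20 in WT, while its general partner Cox6b1 was at 412, 368, 580 and 119 CPM in the same order. Ndufa4l2, a low-oxygen relative of Ndufa4, was at 13.7 CPM in PKO-NF1, 5.89 in NF1, 14.7 in PKO and 7.73 in WT. It was 2.33-fold higher in PKO-NF1 than in NF1 (1.86 to 2.94). Ndufa4 itself was at 466 CPM in PKO-NF1, 541 in NF1, 586 in PKO and 134 in WT.

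Cox5a and Cox5b, partners in the enzyme, were both lowest in WT, but Cox5a was highest in NF1 and Cox5b in PKO. Cox5a was at 139 CPM in PKO-NF1, 242 in NF1, 172 in PKO and 53.2 in WT, and Cox5b was at 329 in PKO-NF1, 413 in NF1, 521 in PKO and 109.5 in WT. Cox5a had the lowest ratio of PKO-NF1 to NF1 among the complex IV genes beside the muscle isoforms (log2 -0.80), with Cox7b at -0.40 and Cox5b at -0.33. Cox7a2l was at 711 CPM in PKO-NF1, 252 in NF1, 641 in PKO and 207 in WT, 2.83-fold higher in PKO-NF1 than in NF1 (2.73 to 2.92). In PKO against WT the highest complex IV ratios were those of Cox7c, Cox6c and Cox7a2 at log2 2.64, 2.55 and 2.47, and the lowest those of Cox6b2, Cox4i2 and Ndufa4l2 at 0.48, 0.68 and 0.93. In PKO-NF1 against PKO the genes ran from -0.71 (Cox7c), -0.66 (Cox5b) and -0.58 (Cox4i1) up to 0.15 (Cox7a2l) and 0.23 (Cox6b2).

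**Figure D4:**
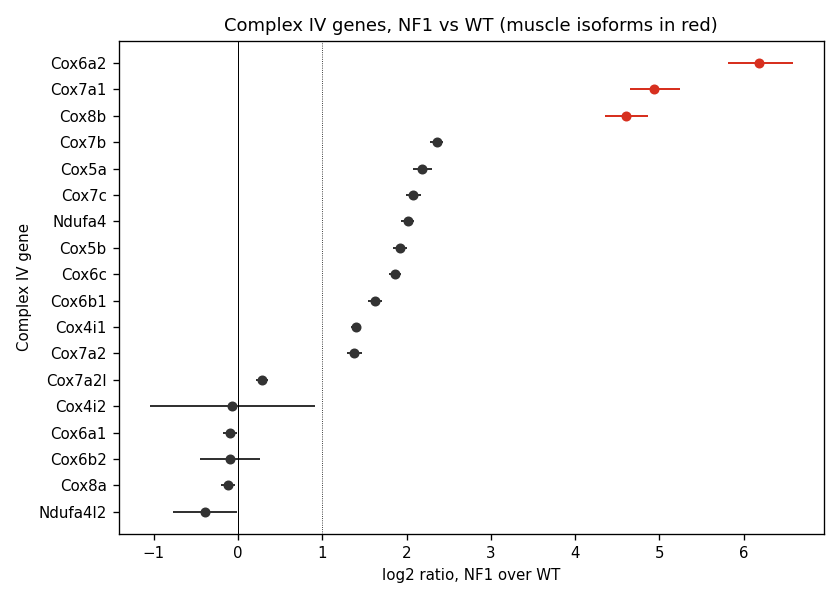
log2 ratio of NF1 over WT for the 18 tested complex IV genes, with exact 95% intervals for counting error; muscle isoforms are red and the dotted line marks 2-fold. The 3 muscle isoforms lie at 4.60 and above, 9 genes between 1.38 and 2.35, and 6 genes near 0.

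Transcript length moved with the ratios. Subunit genes are short, with a median coding transcript of 737 bases, and in PKO against WT shorter genes of every kind were higher: other genes under 1000 bases had a median log2 ratio of 1.17, against -0.23 for those over 2000 bases. The 54 subunit genes under 1000 bases had a median of 2.10. In NF1 against WT the medians under 1000 bases were 1.59 for subunit genes and 0.56 for other genes. Over the 80 subunit genes other than the muscle isoforms, Spearman's rho of ratio and length was -0.58 in PKO against WT and -0.27 in NF1 against WT. It was 0.56 in PKO-NF1 against PKO and -0.31 in PKO-NF1 against NF1. Over the other genes tested it was -0.49, -0.31, -0.27 and -0.43 in the same order. In PKO-NF1 against PKO the subunit genes thus ran opposite to the other genes. Their rho there was still 0.30 with the trend in length and GC content removed. Genes of a library share its depth and quality, and no p is given.

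Cytosolic ribosomal protein genes, also short, took 12.2% of counts in PKO-NF1, 7.44% in NF1, 15.7% in PKO and 4.06% in WT. In PKO against WT 78 of 83 were higher, with a median log2 ratio of 2.49, and in NF1 against WT 51 of 83 were higher, with a median of 1.07. In PKO-NF1 against PKO the ribosomal median was -0.53, below the -0.26 of the subunit genes, so a lower level there was not particular to subunits. In PKO-NF1 against NF1 the ribosomal median was 0.85.

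The trend of other genes in length and GC content was removed next. Of 83 subunit genes, 38 were still at least 2-fold higher in NF1 than in WT (7.61% of all genes) and the median log2 ratio was 0.94. In PKO against WT 40 were higher (5.63% of all genes) and the median was 0.97. The core subunits of complex I then had a median of 0.13 in PKO against WT, and the accessory subunits 1.13; in NF1 against WT these were 0.77 and 1.03. In PKO-NF1 against PKO 8 genes were lower (4.34% of all genes), with a median of -0.45. In PKO-NF1 against NF1 11 genes were lower (10.3% of all genes) and the median turned to -0.38. With coding transcript length in place of the longest transcript, added after the data were seen, the counts were 37 higher in NF1 against WT (7.5% of all genes), 33 higher in PKO against WT (4.97%), 5 lower in PKO-NF1 against PKO (4.67%) and 12 lower in PKO-NF1 against NF1 (11.0%).

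**Figure D5:**
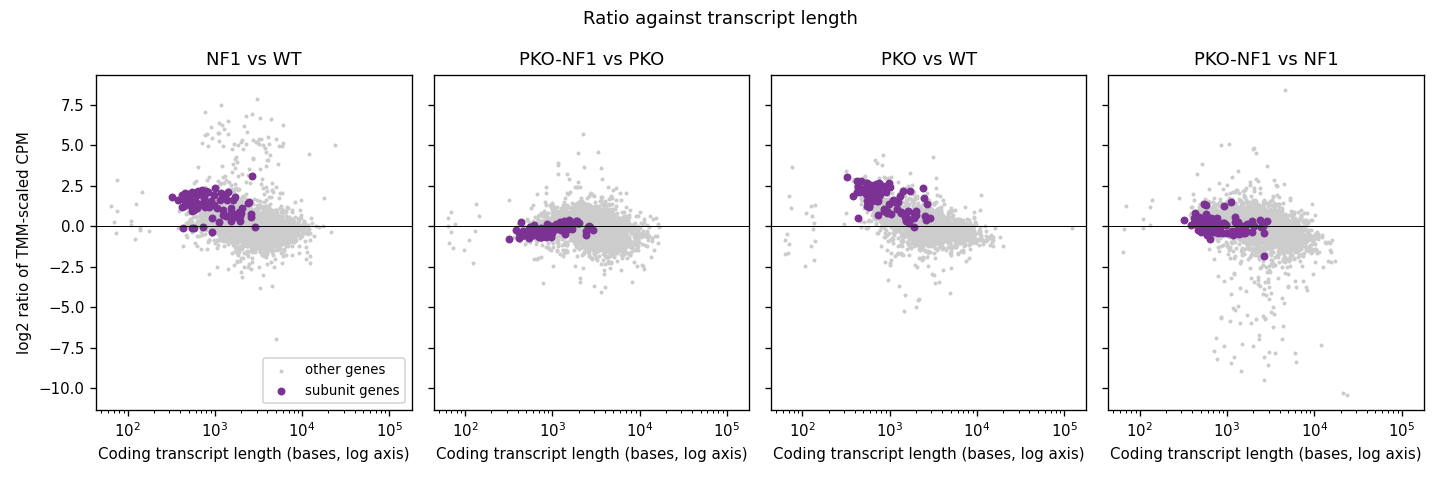
log2 ratio of TMM-scaled CPM against coding transcript length (bases, log axis) in the 4 comparisons, with 1 point per gene; purple points are the 80 tested subunit genes without the muscle isoforms and grey points are an evenly spaced subset of the other genes tested. Short genes of both kinds lie above 0 in PKO vs WT, with medians of 2.10 for subunit genes and 1.17 for other genes under 1000 bases.

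An additive model over all 4 libraries, with a term for each genotype, was fitted by edgeR's quasi-likelihood test. It leaves 1 residual degree of freedom, taken up by the interaction of both losses, so no p-value here measures how animals of a genotype vary. For the Nf1 term 0 of 83 subunit genes passed an adjusted p of 0.05, 2 had an unadjusted p under 0.05, both higher (8.17% of all genes higher, 12.7% lower), and the smallest adjusted p, from edgeR with Benjamini-Hochberg adjustment, was 0.192 (Cox6a2). Of all genes edgeR called 0.0% in either direction, and DESeq2 called 75 genes higher and 209 lower, 0 of them subunits (0.532% and 1.48% of all genes). For the P2ry14 term edgeR called 0 subunit genes (0.0% of all genes higher, 0.0496% lower), with 11 higher and 1 lower at an unadjusted p under 0.05 (11.5% and 13.6% of all genes) and a smallest adjusted p of 0.142 (Cox6a1). DESeq2 called 5 subunit genes higher with P2ry14 loss: Cox7a2l, Cox6a1, Cox8a, Ndufa2 and Uqcrh, where it called 3.11% of all genes higher and 1.99% lower. Their log2 changes in DESeq2 were 1.56, 1.52, 1.29, 1.49 and 1.68.

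Other genes of oxidative metabolism came from lists of the pathway. Of all genes tested, 10.4% were higher and 6.31% lower in NF1 than in WT, and 10.0% were higher and 5.22% lower in PKO than in WT. Of 14 complex I assembly factors 6 were higher in NF1 than in WT and 4 in PKO than in WT, with medians of 0.69 and 0.47. In NF1 they ran from Tmem186 at log2 -0.29 and Acad9 at -0.20 up to Ndufaf6 at 2.39 and Ndufaf5 at 2.66. Of 31 assembly factors of complexes II to V 11 were higher in NF1 and 12 in PKO. Cox17, a copper chaperone of complex IV, and Pet100 led in PKO at log2 2.51 and 2.52, Lyrm7 and Uqcc2, both of complex III, led in NF1 at 2.84 and 1.96, and Sco2 was lowest in NF1 at -0.74, with Cox15 next. None of these genes was lower in either comparison.

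The tricarboxylic acid cycle and pyruvate dehydrogenase had 5 of 17 genes higher in NF1 than in WT, led by Idh3a at log2 2.13 and Sucla2 at 1.26 with Suclg2 (0.07) and Dlst (0.10) lowest, and 0 of 17 in PKO than in WT. Fatty acid oxidation had 0 of 16 higher in NF1, where Cpt1a (-0.81), Cpt2 (-0.35), Etfa (0.58) and Eci1 (0.71) were the extremes, and 3 in PKO, with Etfb at 1.30 and Eci1 at 1.18. Among import proteins, carriers and outer membrane proteins 9 of 22 were higher in NF1 and 4 in PKO. Slc25a4, the ADP/ATP carrier of muscle and heart, and Timm23 led in NF1 at 2.36 and 2.43, Slc25a13 (-0.96) and Tomm40 (-0.04) were lowest, and Hspe1 and Cycs (cytochrome c) led in PKO at 1.69 and 1.41. Of 18 regulators of mitochondrial biogenesis 3 were higher in NF1, with Esrrg at 3.83 and Tefm at 1.72, and with Polrmt (-0.91) and Pprc1 (-0.71) lowest. In PKO none was higher and 1 was lower, Ppargc1a, the coactivator PGC-1alpha, at -1.07. These median ratios to WT, from -0.22 for the regulators in PKO to 0.95 for assembly factors of complexes II to V in PKO, all lay below those of the subunits. Median longest transcripts of the lists ran from 1762 to 4153 bases, and longer genes had lower ratios to WT. With the length and GC trend removed the list medians ran from -0.10 to 0.66. Those of the subunits were then 0.94 in NF1 and 0.97 in PKO. Mitochondrial ribosomal proteins, outside these lists, had unadjusted medians of 0.80 in NF1 and 1.14 in PKO. Of all genes tested, 10.4% were higher in NF1 than in WT, and 10.0% were higher and 5.22% lower in PKO than in WT. With lists this short, counts as low as 0, 1 or 3 are not read as results about a list.

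Genes whose pattern over the 4 libraries was most like that of a muscle isoform were ranked by Pearson correlation of log2(CPM + 1). For Cox6a2 they included Gm13154, Anapc5, Art1, Capn3 and Cap2, for Cox7a1 9030612E09Rik, Atp6v1g2, Mpped2 and Dusp10, and for Cox8b Leo1, 4921507P07Rik, Mpped2, 2210408F21Rik and Dusp10. Art1 was at 0.427 CPM in PKO-NF1, 93.1 in NF1, 0.0562 in PKO and 1.53 in WT, and Capn3 at 1.16, 34.1, 0.619 and 1.95 CPM in the same order. With 4 libraries a high correlation is common, and nothing is drawn from it.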

How the data were processed

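Raw counts were used as the authors deposited them, with 24062 gene symbols in rows and 4 libraries in columns. The submitters' processing notes name the mouse build mm10, featureCounts 1.5.2, HISAT2 2.0.5 and FastQC 0.11.7. Strand setting, annotation and treatment of multi-mapping reads: not given in the sources used here. Exons of 5 subunit genes overlap another gene on the same strand and those of 30 on either strand, and many subunit genes have processed copies, so their counts are uncertain. Per the labels' protocols, a TruSeq kit turned 1 ug of RNA into each library.

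Library totals were 17771101 in PKO-NF1, 19064779 in NF1, 20362685 in PKO and 14111201 in WT, with edgeR 4.0.16 TMM factors of 0.922, 1.03, 0.873 and 1.20. Genes at 1 CPM in at least 1 library were tested as ratios with exact conditional (Clopper-Pearson) 95% intervals. These cover counting error only, since each genotype has 1 library. Reads were amplified by PCR and carry no molecular identifiers, so the intervals may be too narrow even for that error. The additive model used edgeR glmQLFit and glmQLFTest on 14105 genes at 1 CPM in at least 2 libraries, with Benjamini-Hochberg adjustment over all of them, and DESeq2 1.42.0 as an alternative. Length and GC trends were splines with 4 degrees of freedom, from the longest GENCODE M21 transcript. They were fitted to genes at 1 CPM in at least 1 library, leaving out the subunit genes and the skeletal muscle markers. Of all symbols, 98.3% matched. The scripts were tested on simulated data. Other alternatives were DESeq2 size factors, total counts only, no filter, a 5 CPM filter, a 1.5-fold limit, and removal of muscle marker or ribosomal protein rows. R 4.3.3 was used.

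The members and lists were chosen with earlier results of these data known. Genes were named by rule: isoform families, the 3 most abundant genes of each complex per kb, the 3 highest and 3 lowest ratios of each complex in each comparison, genes called against the median of their complex, and the 2 highest and 2 lowest of each pathway list in NF1 against WT, with some of PKO against WT. The NRF1 and MEF2 motifs were searched in 2 lengths, the shorter added after the longer had been seen. The groupings of complex I, III and V genes by role were added after the values were seen. Values of a few genes that the naming rule covers are not reported here.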

Additional observations from a re-analysis of the deposited data

Results flagged for a closer look

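Atp5g1, Cox7a1 and Cox8b were called in opposite directions, each at least 2-fold, in the pairs that differ by label in P2ry14. Opposite signs alone were more common. Of 83 ratios, 81 were above 0 in PKO against WT, and 39 were below 0 in PKO-NF1 against NF1. The share of all genes called in opposite directions was not computed, so these calls are not read as unusual for subunit genes. Of all genes tested, 10.0% were higher in PKO than in WT and 13.8% were lower in PKO-NF1 than in NF1. Atp5g1 had a log2 ratio of -1.82 in PKO-NF1 against NF1 and of 1.36 in PKO against WT. Cox7a1 had -3.14 in PKO-NF1 against NF1 and 2.14 in PKO against WT. Cox8b had -2.77 in PKO-NF1 against NF1 and 2.42 in PKO against WT. With 1 library per genotype the difference between the contrasts was not tested. The NF1 library had the highest skeletal muscle marker sum, 71080 CPM against 491.8 in PKO-NF1, 294.8 in PKO and 1341 in WT, and WT had the lowest subunit levels.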

How the results depend on the processing

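With the length and GC trend removed, the genes higher in NF1 than in WT numbered 38 (37 with coding transcript length, an alternative chosen after seeing the data). Those higher in PKO than in WT numbered 33 with coding length, and the median log2 ratio was 0.97, or 0.80 with coding length. Genes lower in PKO-NF1 than in PKO numbered 8, 5 with coding length and 11 at 1.5-fold (20.1% of all genes). Genes lower in PKO-NF1 than in NF1 numbered 11, or 12 with coding length. The median of that comparison turned to -0.38, to -0.49 with coding length, and to -0.13 with total counts only. In PKO against WT 2 of 83 ratios lay below 0, and 9 did with the length and GC trend removed. Among these, Ndufc2 turned to log2 -0.004, or -0.031 with coding length. In PKO-NF1 against NF1 44 ratios lay above 0, and 16 did with that trend removed. DESeq2 called 5 genes for the P2ry14 term (3.11% of all genes higher) where edgeR called 0. The causes were not tested. Scaling by total counts moved the median of all genes by -0.22 in NF1 against WT, -0.46 in PKO against WT and -0.17 in PKO-NF1 against NF1. It then called 7.54% of all genes higher and 10.8% lower in NF1 against WT, and 5.11% higher and 18.6% lower in PKO against WT. DESeq2 size factors, or removal of muscle or ribosomal rows, only rescale whole libraries, so a ratio close to 1 can change direction under them. DESeq2 size factors moved the median of all genes by 0.015 in PKO against WT and by -0.015 in PKO-NF1 against PKO. Either filter leaves every ratio as it is, so it could not change a direction. Removing muscle marker rows leaves the counts of subunit genes as they were, so it does not test the part of muscle in them. No paired analysis was possible because each genotype has 1 library and the labels carry no replicate numbers. Leaving out a library leaves the additive model with no residual degrees of freedom, so that was not run. Depth limited only genes of few counts, such as Cox6a2 in PKO with 13.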
